A study of Mus musculus with 4 samples.

Results

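The 35 genes described here encode the intraflagellar transport (IFT) trains, the BBSome and the motor that carries trains back from the tip of a cilium. They were listed by name and not by a measured value, and a gene was read from probe sets whose annotation gives its symbol alone. Of the 35 genes, 34 had such a probe set and all 34 were bright enough to be tested, among 15268 tested genes of 18193 with a probe set. The remaining gene, *Arl6*, was paired with no probe set and has no value here. Each gene is described by its probe set with the highest mean signal, and the other probe sets are given afterwards.

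Testis RNA of 2 WT mice and 2 *Ccnyl1*-/- mice was hybridized to 1 GeneChip Mouse Genome Array per sample, and the labels call the samples of a genotype biological replicates. All 4 mice were C57BL/6 adults of 2 months. The *Ccnyl1*-/- mice carried the KO-first allele *Ccnyl1* tm1a (EUCOMM)Wtsi with its LacZ cassette in the whole body, and were bred from heterozygous parents. *Ccnyl1* encodes cyclin Y-like 1, and the comparison asks whether testis RNA differs without it.

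A cilium or a sperm flagellum is a microtubule axoneme inside a sheath of membrane, and has no ribosomes of its own. IFT trains carry tubulin and other building parts along the axoneme. Kinesin-2 moves them towards the tip with the IFT-B complex, and cytoplasmic dynein-2 brings them back with the IFT-A complex. The BBSome is a coat of BBS proteins that rides on the trains and carries membrane proteins in and out of cilia. In the testis the genes are known mainly from spermatids, which build the flagellum. Male mice with defects in *Ift88*, *Ift20*, *Ift172* or BBSome genes make sperm with short or missing tails.

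RFX transcription factors, which drive genes of cilia, bind a paired sequence called the X-box. In the promoters of RefSeq, which run from 250 bases before to 50 bases after each start site in GRCm38.p6, the X-box was searched on both strands as GTNNCC and NGNAAC with 0 to 3 bases between them. A promoter was held for 31 of the 35 genes, all but *Ift80*, *Ift81*, *Ift122* and *Dync2li1*. The motif stood in 8 of the 31 genes (25.8%) and in 1726 of all 32851 promoters (5.25%). The match nearest the start site of each of these genes is shown so that the regulatory letters stand beside the RNA values that follow. Each run is 5′ to 3′ on the strand of the gene, with the motif in capitals.
Ift22 (chr5:136908109-136908138, + strand): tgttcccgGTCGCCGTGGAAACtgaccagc
Ift74 (chr4:94614478-94614507, + strand): cggtgaccGTTGCTAGGATACgcggcgtcg
Ttc26 (chr6:38381483-38381512, + strand): ccggcggcGTTGCCGTGGAAACggagctcg
Ift57 (chr16:49699226-49699255, + strand): gccctgcgGTTGCCTGGTAACggtggggac
Bbs1 (chr19:4906605-4906634, - strand): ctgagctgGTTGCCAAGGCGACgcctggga
Bbs4 (chr9:59353464-59353493, - strand): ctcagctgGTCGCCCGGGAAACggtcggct
Bbs7 (chr3:36613489-36613518, - strand): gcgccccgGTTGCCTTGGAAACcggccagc
Lztfl1 (chr9:123717597-123717626, - strand): tgtctccGTTCCCATTGGCAACgcgcggct
The first base of these motifs lies at -33 in *Ift22*, -5 in *Ift74*, -33 in *Ttc26*, -60 in *Ift57*, 2 in *Bbs1*, 24 in *Bbs4*, -121 in *Bbs7* and 7 in *Lztfl1*, counting the first transcribed base as 1 and the base before it as -1. *Ift22*, *Ift57* and *Lztfl1* hold a second match each, which makes 11 matches in all. The cAMP response element TGACGTCA, the full site of the CREB and CREM factors, stood in *Ift57* and *Mkks* (6.45% of the 31 genes) and in 1.79% of all promoters. A match is a run of letters and not a measured binding site.

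The signal of *Ccnyl1* itself was 2256 and 2425 for WT against 921 and 969 for *Ccnyl1*-/-. Both *Ccnyl1*-/- mice lay below both WT mice, as their labels ask, and signal remained in them. Whether this probe set reads a stretch before or after the inserted cassette was not known here. A signal is the intensity of a probe set in MAS 5.0 units, and each array was scaled to the same trimmed mean of 500.0. Differences are given as log2(signal + 16) of *Ccnyl1*-/- minus WT. For *Ccnyl1* the difference was -1.29 (SE 0.089, adjusted p = 0.00463 by limma), and 4 of 32438 tested probe sets passed an adjusted p of 0.05. Without the variance trend 0 passed (*Ccnyl1* adjusted p = 0.596 by limma), as by the methods' t-test (adjusted p = 0.723), while 46 passed without WT replicate 1, 55 without WT replicate 2 and 7 without *Ccnyl1*-/- replicate 1. The 7 elongating spermatid markers were bright in both genotypes, with mean signals of 17924 to 40877 and a median difference of -0.0018. Of these, *Smcp* (0.18) and *Prm1* (0.094) lay wholly higher in *Ccnyl1*-/- mice. *Odf1* (-0.14) and *Prm2* (-0.099) lay wholly lower, and the others overlapped. The median difference was -0.0031 over the 7 round spermatid markers and 0.12 over the 7 spermatocyte markers. Of the latter, 6 were positive. *Sycp3* (0.17), *Piwil1* (0.12), *Mlh3* (0.10) and *Hspa2* (0.045) lay wholly higher in *Ccnyl1*-/- mice. *Dmc1* (-0.64) lay wholly lower, and *Sycp1* and *Spo11* overlapped. The median was 0.011 over 6 of 7 spermatogonial markers, 0.044 over 7 Sertoli markers, 0.14 over 5 peritubular markers and -0.11 over 5 macrophage markers. The 4 of 6 Leydig markers with a probe set differed most between mice, their summed signal being 6741 and 3708 for WT and 8883 and 4946 for *Ccnyl1*-/-. Their median difference was 0.47. *Star* (0.57) lay wholly higher in *Ccnyl1*-/- mice. *Cyp17a1* (0.51) and *Cyp11a1* (0.43) were higher with overlap, and *Hsd3b1* (-0.20) was lower with overlap. Multiciliated cells of the efferent ducts also use IFT genes. Of 7 genes listed for them, 5 had a probe set. Their signals summed to 9474 and 8759 with WT RNA and to 9213 and 8677 with *Ccnyl1*-/- RNA, nearly all of it from *Deup1* (difference -0.034). *Cdhr3* lay between 3.82 and 6.99 in all 4 mice. The median over the 4 tested ones, *Scgb1a1* among them, was 0.13, with 2 positive and 2 negative. *Ccno* (0.29) lay wholly higher in *Ccnyl1*-/- mice, while *Foxj1* (-0.13) and *Deup1* overlapped. *Scgb1a1*, a gene of secretory cells and not a marker of multiciliated ones, also lay wholly higher. Its difference was 1.38, from signals of 2.24 and 26.7 for WT and 92.4 and 32.5 for *Ccnyl1*-/-. Its mean reached the 32 needed for testing only through the *Ccnyl1*-/- mice. Without *Scgb1a1*, the middle one of the tested differences is that of *Deup1* (-0.034). The summed signal of 6 of 7 epididymis markers came to 354 and 302 for WT and to 495 and 326 for *Ccnyl1*-/-. The median over the 4 tested ones was 0.57. *Lcn8* (1.06) lay wholly higher in *Ccnyl1*-/- mice, from signals of 12.3 and 26.2 for WT and 58.2 and 54.1 for *Ccnyl1*-/-. Its mean also reached the 32 needed for testing only through the *Ccnyl1*-/- mice. Its order and its part in the median are therefore partly set by that minimum. *Gpx5* (0.61), *Spink8* (0.54) and *Rnase10* (-0.15) overlapped. No marker of these lists passed the test after adjustment, and the part of cell type shares in the values that follow was not tested.

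The 34 genes had mean signals from 203 to 9522, and no difference between genotypes held up in the test. None passed an adjusted p of 0.05 (0.0123% of all tested probe sets did), and the lowest adjusted p among them was 0.729 by limma. The differences divided evenly, with 17 genes higher and 17 lower in the *Ccnyl1*-/- mice, and their median was -0.0057 against 0.022 over all tested probe sets. The central genes lay between -0.072 and 0.050 (quartiles), and the whole range ran from -0.38 in *Bbs12* to 0.28 in *Mkks*. Because whole testes were used, fewer cells of a type and less RNA per cell cannot be told apart.

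**Figure D1:**
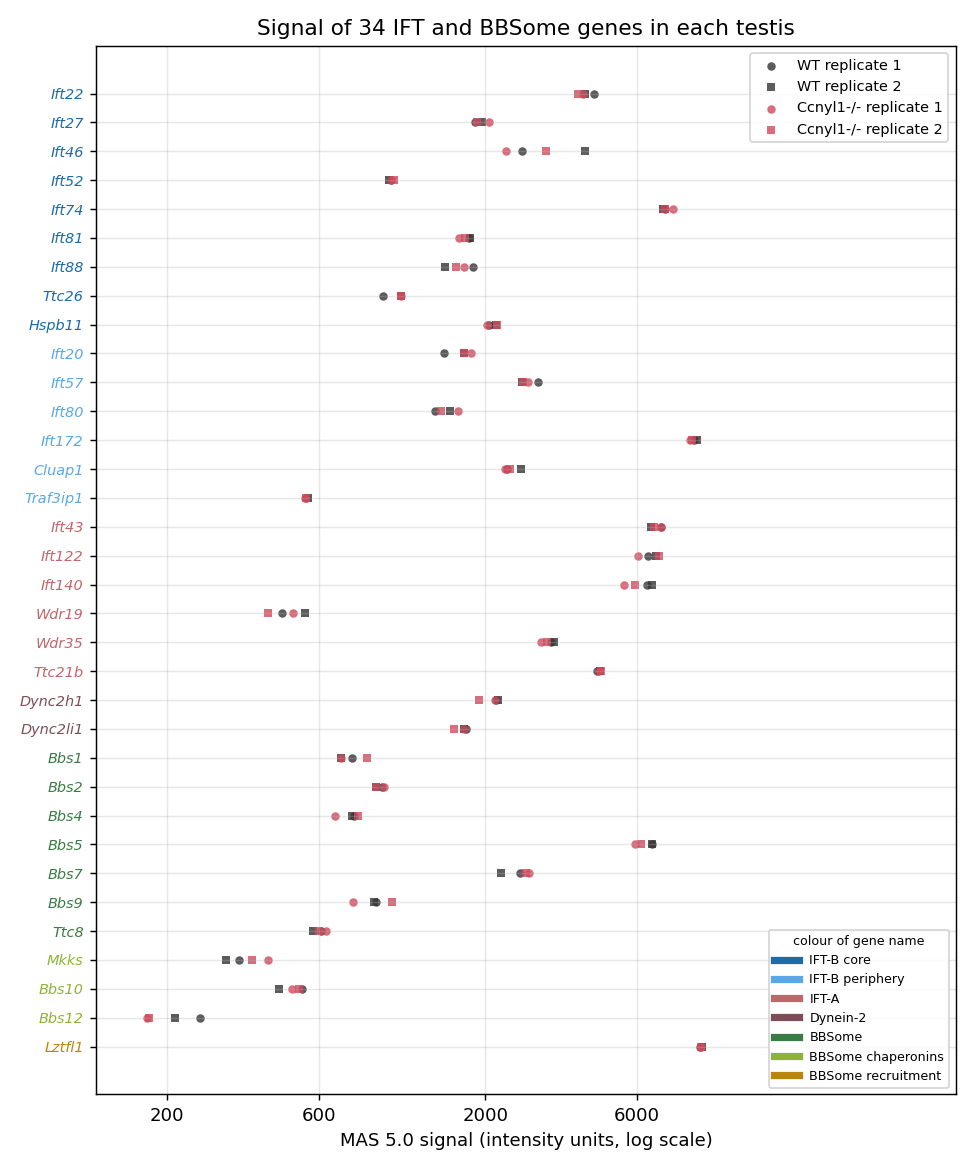
Signal of each of the 34 genes in each mouse, on a log scale of MAS 5.0 intensity units, with circles and squares for replicates 1 and 2, black for WT and red for *Ccnyl1*-/-, and gene names coloured by role. The 4 points of most genes nearly coincide, while *Ift46* is spread within both genotypes and *Bbs12* lies lower in both *Ccnyl1*-/- mice. Distances between genes are not differences in RNA level, since each probe set has its own brightness.

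At an unadjusted p under 0.05, limma gave *Ift140* and *Bbs5*, both lower in the *Ccnyl1*-/- mice, which is 2 of 34 genes where 6.05% of all tested probe sets reached that level. Leaving out 1 mouse moved this count, but 1 genotype then has a single mouse and the counts are not compared. Both *Ccnyl1*-/- mice lay below both WT mice in 9 genes (15.3% of all tested probe sets did) and above them in 4 genes (20.6%), and the genotypes overlapped in 21 genes. With each array scaled to 1 median signal instead, 26 genes were lower and 8 higher, 13 genes lay wholly below and 2 wholly above, and the median over all probe sets moved from 0.022 to -0.029. With quantile normalization, 17 genes were lower, 9 lay wholly below and 6 wholly above. The 15.3% and 20.6% belong to the main scaling, and no such share is given for these 2 scalings. Median scaling turned the sign of 9 of the 34 differences and quantile normalization of 0.

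The 95% intervals come from limma, which pools the spread of a gene with that of probe sets of like signal. The bounds they give rest on this pooling, since 2 mice per genotype say little about the spread of a single gene. The 95% interval of all 34 genes lay within a 2-fold change either way, and that of 31 genes within a 1.5-fold change, the exceptions being *Ift46*, *Mkks* and *Bbs12*. Over all tested probe sets 75.8% of the intervals lay within 2-fold and 46.8% within 1.5-fold. Over probe sets with a mean signal of at least 100 these shares were 95.7% and 68.7%, and the dimmest of the 34 genes had a mean signal of 203. Mice of a genotype were close to each other, with a median of 0.13 for the larger of the ranges within a genotype on the log2 scale, and only *Ift46* and *Bbs9* had a range over 0.3. The genotype difference exceeded the range within each genotype in 8 genes, namely *Ift22*, *Ift81*, *Ift172*, *Ift140*, *Wdr35*, *Bbs5*, *Mkks* and *Bbs12*. The share of all tested probe sets that do so was not counted, so this number says nothing particular about the 34 genes. The median deviation of the 34 genes from their own means was 0.012 and 0.018 for the WT arrays and -0.0026 and -0.0076 for the *Ccnyl1*-/- arrays. Such a median does not show whether a mouse stood apart in single genes.

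**Figure D2:**
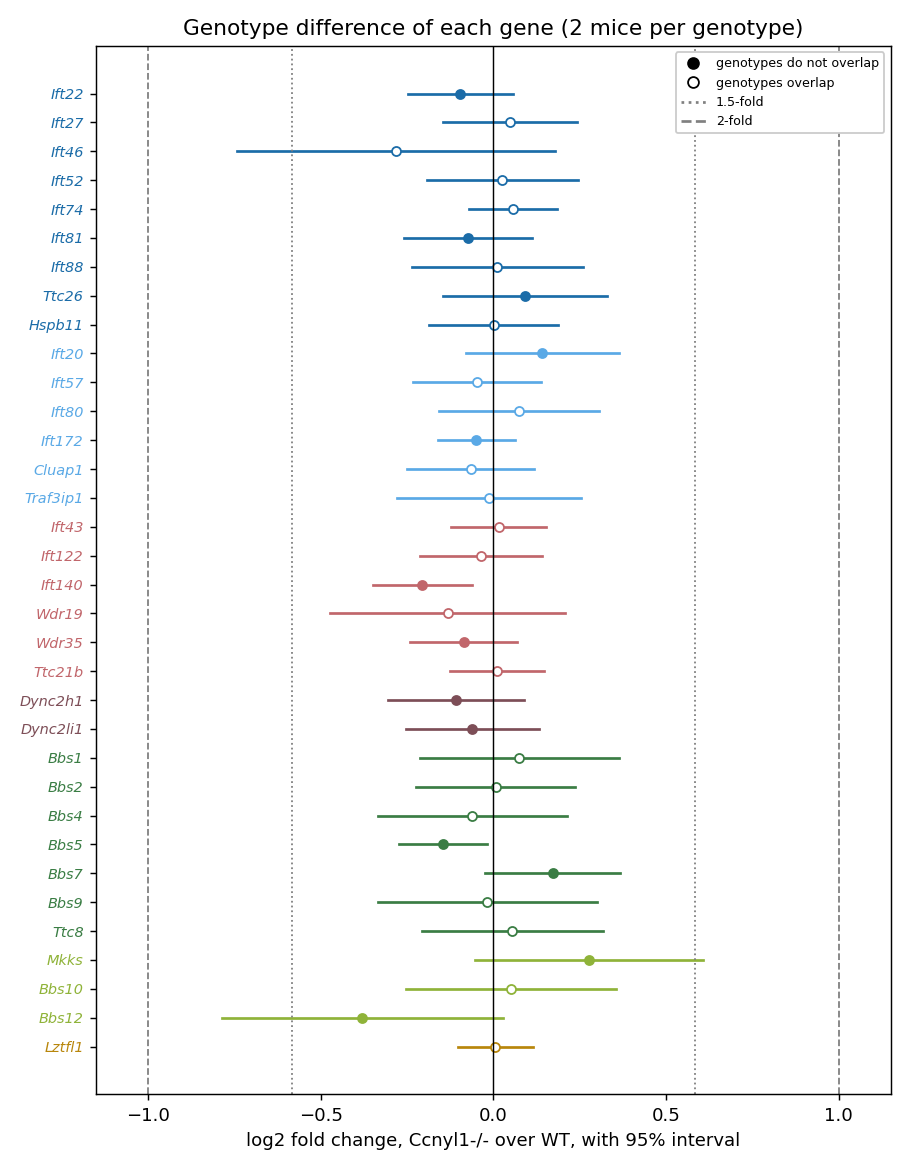
Log2 difference of each gene, *Ccnyl1*-/- minus WT, with its 95% interval from limma; filled points mark genes whose genotypes do not overlap, and dotted and dashed lines mark 1.5-fold and 2-fold. All intervals lie inside the 2-fold lines, and only those of *Ift140* and *Bbs5* do not reach 0.

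The core of IFT-B, the complex of outward trains, held 9 genes with a median difference of 0.010, 6 of them positive and 3 negative, which became -0.044 with 7 negative when arrays were scaled to 1 median. *Ift88*, the subunit mutated in the Oak Ridge polycystic kidney mouse, measured 1828 and 1497 in WT testes, against 1712 and 1622 in those of *Ccnyl1*-/- mice, so that the WT values enclosed the others. *Ift52*, which ties the parts of the core together, gave 1013 and 995 for WT and 1012 and 1033 for *Ccnyl1*-/-, a difference of 0.026 with a 95% interval of -0.19 to 0.24. *Ift74* and *Ift81* encode the partners that bind tubulin. *Ift74* had WT signals of 7355 and 7212 and *Ccnyl1*-/- signals of 7799 and 7353, with an interval of -0.071 to 0.18. *Ift81* stood at 1776 and 1788 in the WT pair, against 1655 and 1731 in the *Ccnyl1*-/- pair, lower in both of the latter by a difference of -0.074. This order is not shared by its other tested probe set.

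*Ift46*, which links outer dynein arms to the trains, had the widest spread of the 34 genes. Its signal read 2605 and 4106 with WT RNA and 2323 and 3107 with *Ccnyl1*-/- RNA, and replicate 1 was the lower mouse in both genotypes. The difference of -0.28 (interval -0.74 to 0.18) ran from -0.61 without WT replicate 1 to 0.044 without WT replicate 2, so that 1 mouse set its direction. *Ift22* and *Ift27* encode small GTPases of the core. *Ift22* measured 4384 and 4121 in WT testes, against 4058 and 3897 in those of *Ccnyl1*-/- mice, without overlap, and its interval of -0.25 to 0.056 includes 0. *Ift27* gave 1851 and 1957 for WT and 2057 and 1882 for *Ccnyl1*-/- and overlapped. *Hspb11* encodes IFT25, the partner of IFT27, and both proteins are known to be needed for the sperm tail. It had WT signals of 2046 and 2153 and *Ccnyl1*-/- signals of 2021 and 2182, a difference of 8.7e-04 (interval -0.19 to 0.19). *Ttc26*, the gene of IFT56, stood at 954 and 1086 in the WT pair, against 1087 and 1086 in the *Ccnyl1*-/- pair, and WT replicate 2 lay just below both *Ccnyl1*-/- mice.

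The 6 genes of the IFT-B periphery, which joins the trains to kinesin-2 and to cargo, had a median difference of -0.030 with 4 negative, also 4 negative with median scaling and with quantile normalization. *Ift172*, the largest subunit, read 9075 and 9238 with WT RNA and 8788 and 8904 with *Ccnyl1*-/- RNA. Both latter values were the lower ones, by a difference of -0.050 with an interval of -0.16 to 0.062. *Ift20*, which also sits at the Golgi where vesicles for the cilium are sorted, measured 1486 and 1717 in WT testes, against 1808 and 1719 in those of *Ccnyl1*-/- mice. It was the only gene of the periphery that lay wholly higher, by 0.14 (interval -0.08 to 0.36), and the difference ranged over 0.038 to 0.24 when 1 mouse was left out.

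*Ift57* gave 2930.1 and 2607 for WT and 2714 and 2634 for *Ccnyl1*-/-, and WT replicate 1 was the highest of the 4. *Ift80*, mutated in a human skeletal ciliopathy, had WT signals of 1392 and 1545 and *Ccnyl1*-/- signals of 1647 and 1447. *Cluap1*, the gene of IFT38, stood at 2343 and 2587 in the WT pair, against 2312 and 2389 in the *Ccnyl1*-/- pair. The genotypes overlapped in all 3 of these genes. *Traf3ip1*, the gene of IFT54, which binds microtubules, hardly varied between mice, with signals of 545 and 554 for WT and 544 and 546 for *Ccnyl1*-/-. It is also the only one of the 35 genes on chromosome 1, where *Ccnyl1* lies, with 216 genes between them, and none of the 35 genes is among the 50 genes on either side of *Ccnyl1*.

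IFT-A, the complex of returning trains, held the gene with the lowest p of all 34. *Ift140*, a subunit of its core, read 6438 and 6671 with WT RNA and 5444 and 5925 with *Ccnyl1*-/- RNA. Both *Ccnyl1*-/- mice were below both WT mice, the means being 6554 ± 165 for WT and 5684 ± 340 for *Ccnyl1*-/- (SD, n = 2 each). The difference was -0.21 (SE 0.063, 95% interval -0.35 to -0.062), and it did not pass the test after adjustment over all probe sets, with an unadjusted p of 0.0107 and an adjusted p of 0.729 by limma. It stayed negative when each mouse was left out in turn, from -0.27 to -0.15.

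Of the other IFT-A genes, only *Wdr35* did not overlap. *Wdr35*, the gene of IFT121, measured 3219.8 and 3275 in WT testes, against 2998 and 3119 in those of *Ccnyl1*-/- mice, a difference of -0.086 (interval -0.24 to 0.069). *Wdr19*, the gene of IFT144, gave 458 and 543 for WT and 496 and 414 for *Ccnyl1*-/-, with the mice of each genotype farther apart than the genotype means. *Ift122*, a core subunit, had WT signals of 6498 and 6863 and *Ccnyl1*-/- signals of 6044 and 7019, and the *Ccnyl1*-/- values enclosed the WT values. *Ift43* and *Ttc21b* encode subunits at the edge of the complex. *Ift43* stood at 7116 and 6628 in the WT pair, against 7117 and 6764 in the *Ccnyl1*-/- pair. *Ttc21b* read 4493 and 4597 with WT RNA and 4554 and 4607 with *Ccnyl1*-/- RNA, and the difference was 0.011 (interval -0.13 to 0.15). The median over the 6 IFT-A genes was -0.061 with 4 negative, and it was -0.12 with 6 negative when arrays were scaled to 1 median and -0.041 with 4 negative after quantile normalization.

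Cytoplasmic dynein-2 is the motor that returns the trains with IFT-A. Its heavy chain gene *Dync2h1* measured 2161 and 2198 in WT testes, against 2145 and 1903 in those of *Ccnyl1*-/- mice, a difference of -0.11 (interval -0.31 to 0.088). Its light intermediate chain gene *Dync2li1* gave 1740.0 and 1719 for WT and 1719 and 1598 for *Ccnyl1*-/-, a difference of -0.061 (interval -0.25 to 0.13). In both genes *Ccnyl1*-/- replicate 1 was barely below the lower WT mouse and replicate 2 was the lowest of the 4. Without that replicate the differences were -0.023 and -0.009. Of the other subunits, listed with the wider pathway and grouped here after their values were seen, *Wdr60* had WT signals of 2343 and 2432 and *Ccnyl1*-/- signals of 2068 and 2029, a difference of -0.22 (interval -0.39 to -0.047, unadjusted p = 0.0186 and adjusted p = 0.774 by limma). Its partner intermediate chain *Wdr34* stood at 1043 and 1099 in the WT pair, against 915 and 1036 in the *Ccnyl1*-/- pair. The light chain gene *Tctex1d2* read 9315 and 9697 with WT RNA and 9087 and 8803 with *Ccnyl1*-/- RNA.

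*Dynll1* and *Dynlrb1* encode light chains that other dyneins share. *Dynll1* measured 27765 and 29192 in WT testes, against 27136 and 26815 in those of *Ccnyl1*-/- mice. *Dynlrb1* went the other way, with WT signals of 566 and 582 and *Ccnyl1*-/- signals of 729 and 643. Of these 7 subunits, brought together after their values were seen, 6 lay wholly below WT and 1 wholly above, where 15.3% and 20.6% of all tested probe sets did, and their median difference was -0.087. None of the 7 passed the test after adjustment. With quantile normalization 5 of them lay wholly below, and no share over all probe sets is given for that scaling.

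**Figure D3:**
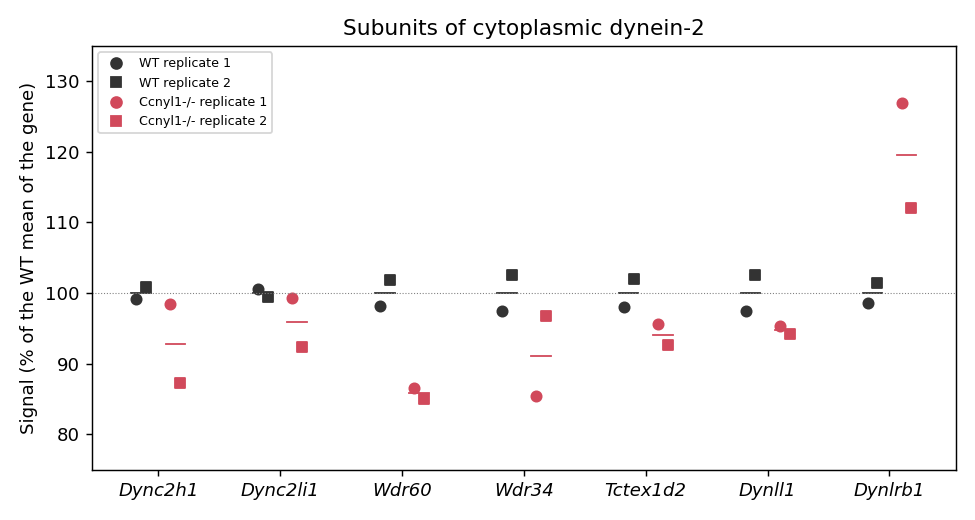
Signal of the 7 dynein-2 subunit genes in each mouse as a percentage of the mean of the WT mice for that gene (horizontal dashes mark the mean of 2 mice). The red points lie below the black ones in all genes but *Dynlrb1*, and in *Dync2h1* and *Dync2li1* by very little for *Ccnyl1*-/- replicate 1.

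The 7 BBSome genes form the coat together with the small subunit BBIP1, and their median difference was 0.0059 with 4 positive and 3 negative, and -0.048 with 3 positive and 4 negative when arrays were scaled to 1 median. *Bbs5*, the subunit with pleckstrin homology domains that bind membrane lipid, gave 6695 and 6694 for WT and 5917 and 6188 for *Ccnyl1*-/-. The WT mice agree to within 1 unit of signal here, and both *Ccnyl1*-/- mice lay below them. The difference was -0.15 (SE 0.056, 95% interval -0.27 to -0.018), with an unadjusted p of 0.0298 and an adjusted p of 0.797 by limma. It ranged over -0.18 to -0.11 when 1 mouse was left out. *Bbs7*, one of the propeller subunits, had WT signals of 2575 and 2246 and *Ccnyl1*-/- signals of 2735 and 2684, wholly higher in the latter. Its difference of 0.17 (interval -0.025 to 0.37) was 0.073 without WT replicate 2, the lowest of the 4 mice.

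The other BBSome genes overlapped between genotypes. *Bbs1*, the subunit that binds ARL6 when the coat is recruited to membrane, stood at 764 and 702 in the WT pair, against 703 and 848 in the *Ccnyl1*-/- pair. *Bbs2*, the partner of BBS7, read 948 and 909 with WT RNA and 959.6 and 906 with *Ccnyl1*-/- RNA. *Bbs9*, another propeller subunit, measured 904 and 891 in WT testes, against 770.3 and 1021 in those of *Ccnyl1*-/- mice, so that its WT mice nearly coincided and the *Ccnyl1*-/- mice lay on either side of them. *Bbs4*, built of the repeats that also make up BBS8, gave 774 and 759 for WT and 675 and 798 for *Ccnyl1*-/-, in the same arrangement. *Ttc8*, the gene of BBS8, had WT signals of 609 and 577 and *Ccnyl1*-/- signals of 631 and 602. In *Bbs1*, *Bbs4* and *Bbs9*, replicate 2 was the higher of the *Ccnyl1*-/- mice.

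The chaperonin genes held the highest and the lowest difference of the 34. MKKS, BBS10 and BBS12 help the propeller subunits to fold before the BBSome is put together. The probe sets of *Mkks* and *Bbs12* were also the dimmest of the 34, and their intervals were among the 4 widest. *Mkks* stood at 337 and 306 in the WT pair, against 416 and 371 in the *Ccnyl1*-/- pair. Both *Ccnyl1*-/- mice were above both WT mice, by 0.28 (95% interval -0.053 to 0.61, adjusted p = 0.832 by limma). *Bbs12* read 253 and 211 with WT RNA and 172 and 176 with *Ccnyl1*-/- RNA. Both *Ccnyl1*-/- mice were below both WT mice, with a difference of -0.38 (95% interval -0.79 to 0.027, adjusted p = 0.828 by limma). The differences stayed positive over 0.20 to 0.36 in *Mkks* and negative over -0.50 to -0.26 in *Bbs12* when 1 mouse was left out. *Bbs10* measured 529 and 451 in WT testes, against 494 and 519 in those of *Ccnyl1*-/- mice, with overlap.

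Entry of the BBSome into cilia depends on ARL6, which has no value here, and is held back by LZTFL1. *Lztfl1* gave 9453 and 9554 for WT and 9541 and 9539 for *Ccnyl1*-/-. With a difference of 0.0055 and an interval of -0.10 to 0.11, it had the narrowest interval of the 34 genes.

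Several probe sets of a gene read different stretches of its transcripts. Of the 55 probe sets of the 34 genes, 50 were tested and 5 were too dim, and 11 genes had more than 1 tested probe set. The tested probe sets shared a sign in 5 of the 11 genes and differed in 6. The other 16 probe sets lay a median of 0.13 from the brightest of their gene on the log2 scale, and at most 0.30. That largest distance was in *Wdr35*, whose second probe set had WT signals of 457 and 544 and *Ccnyl1*-/- signals of 392 and 361. It gave a difference of -0.39 (interval -0.72 to -0.065, unadjusted p = 0.0242 and adjusted p = 0.783 by limma), in the same direction as the brightest. The second probe set of *Ift122* stood at 2752 and 2793 in the WT pair, against 2355 and 2588 in the *Ccnyl1*-/- pair, also without overlap and with a difference of -0.17 (interval -0.34 to 0.011), where the brightest had overlapped.

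In *Mkks*, the second probe set gave only 0.068 (interval -0.50 to 0.63) and its signals overlapped, at 105 and 84.8 for WT and 92 and 108 for *Ccnyl1*-/-. *Ift27* had further probe sets at -0.12 and 0.21, so that its probe sets pointed both ways. The second probe set of *Ift81* gave 0.013, that of *Ttc21b* 0.15, that of *Wdr19* 0.14, that of *Ift80* 0.0038 and that of *Bbs10* -0.08. The 3 further probe sets of *Bbs4* gave -0.049, -0.15 and 0.093, and those of *Lztfl1* gave 0.048, -0.013 and -0.11. Over all 50 tested probe sets the signs were 25 positive and 25 negative, 42 intervals lay within 1.5-fold, and 11 lay wholly lower and 5 wholly higher in *Ccnyl1*-/- mice, beside 15.3% and 20.6% of all tested probe sets.

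**Figure D4:**
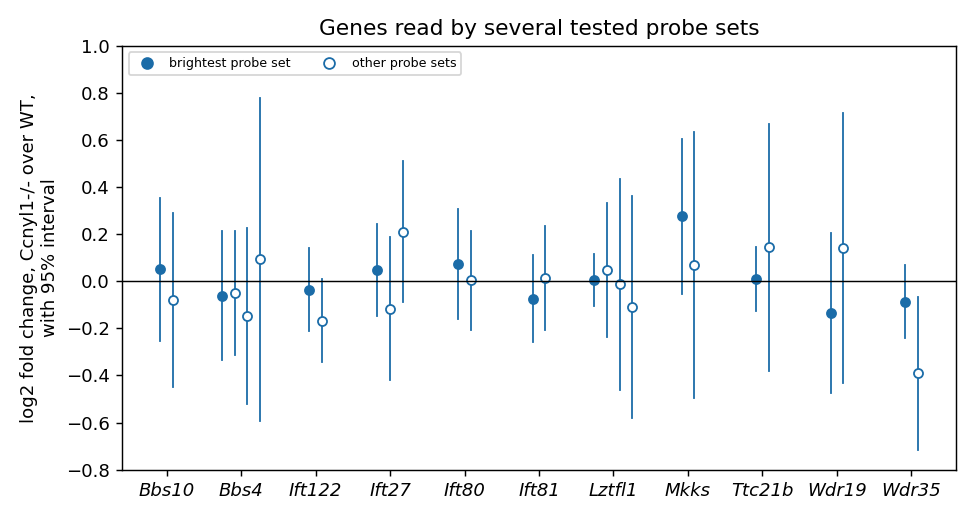
Log2 difference, *Ccnyl1*-/- minus WT, with its 95% interval for every tested probe set of the 11 genes with several, the brightest filled and the others open. Intervals of the same gene overlap throughout, and only the second probe set of *Wdr35* leaves out 0.

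Genes that work with the trains gave no call either. Of 24 further genes of the pathway, 23 were tested and none passed, with a lowest adjusted p of 0.774 by limma, a median difference of 0.016, 12 positive and 11 negative (-0.039 with 9 positive and 14 negative when arrays were scaled to 1 median). At an unadjusted p under 0.05, 4 were higher and 1, *Wdr60*, was lower in *Ccnyl1*-/- mice, where 6.05% of all tested probe sets reached that level. Wholly lower were 6 genes (background 15.3%) and wholly higher were 7 (background 20.6%). *Cilk1*, a kinase that acts on trains at the tip, had the largest difference. It read 231 and 227 with WT RNA and 313 and 316 with *Ccnyl1*-/- RNA, higher by 0.43 (interval 0.087 to 0.77, unadjusted p = 0.0198 and adjusted p = 0.78 by limma). *Tulp3*, which carries receptors on IFT-A, had the lowest difference, with 166 and 191 for WT and 160.3 and 128 for *Ccnyl1*-/-.

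IFT70, an IFT-B subunit that is not among the 35 genes, is encoded in the mouse by 3 near-identical genes, so that their probe sets may cross-read and the values are uncertain. *Ttc30b* measured 413 and 531 in WT testes, against 578 and 619 in those of *Ccnyl1*-/- mice, a difference of 0.34 (interval 0.0054 to 0.68). *Ttc30a2* gave 9489.8 and 9417 for WT and 10429 and 10224 for *Ccnyl1*-/-, a difference of 0.13 (interval 0.019 to 0.24). *Ttc30a1* had WT signals of 1586 and 1560.3 and *Ccnyl1*-/- signals of 1691 and 1729.5, a difference of 0.12 (interval -0.067 to 0.31). All 3, which were picked out after their values were seen, lay wholly higher in *Ccnyl1*-/- mice, as 20.6% of all tested probe sets did. *Bbip1*, the small subunit of the BBSome, stood at 4917 and 4994 in the WT pair, against 5692 and 5326 in the *Ccnyl1*-/- pair, wholly higher by 0.15 (interval 0.011 to 0.29). The kinesin-2 motor genes *Kif3a* and *Kif3b* gave -0.045 and -0.11 with overlap. Their adaptor *Kifap3* read 2171 and 2147 with WT RNA and 2293 and 2318 with *Ccnyl1*-/- RNA, wholly higher by 0.094 (interval -0.075 to 0.26).

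The axoneme, which the trains help to build, was read through 16 of 20 listed genes. None passed the test, with a lowest adjusted p of 0.797 by limma, and their median difference was -0.067 with 5 positive and 11 negative. Both *Ccnyl1*-/- mice lay below WT in 9 of the 16 and above in 3, beside 15.3% and 20.6% of all tested probe sets. After quantile normalization 10 were negative and 6 lay wholly below, and with median scaling 11 were negative and 10 lay wholly below. The 15.3% and 20.6% do not apply to these 2 scalings, for which no share over all probe sets is given. The dynein heavy chain gene *Dnah1* measured 1314 and 1394 in WT testes, against 1757 and 1512 in those of *Ccnyl1*-/- mice, a difference of 0.27 (interval 0.034 to 0.50). *Spag6*, of the central pair, gave 0.18 (interval -0.0011 to 0.37). At the other end *Dnali1*, a light chain of inner dynein arms, gave -0.13 (interval -0.29 to 0.024) and *Tekt2*, a filament protein of the doublets, gave -0.13 (interval -0.26 to -3.2e-04).

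The values can be set beside the promoter letters. The 8 genes with the motif had a median difference of 0.031, from -0.096 in *Ift22* to 0.17 in *Bbs7*, and 3 were negative. The 22 measured genes with a promoter but no match had a median of -0.0057, from -0.38 to 0.28, and 11 were negative. No test was made between the 2 groups of genes.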

How the data were processed

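The authors deposited MAS 5.0 signals, which are intensities on a linear scale, made with default settings and global scaling (per the methods, and MAS5 per the labels' processing notes). MAS 5.0 handles each array by itself, so no level is compared between probe sets, and no depth applies to arrays. The methods state a trimmed mean target of 100, while the deposited arrays have 500.0.

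The signals were put on a log2(signal + 16) scale and fitted by limma 3.58.1 under R 4.3.3, using lmFit with genotype alone in the design and eBayes with its trend option. Of 45037 probe sets (64 controls were left out), 32438 reached a mean signal of 32 or more and were tested, two-sided, with Benjamini-Hochberg adjustment over all of them and a threshold of 0.05. Both settings were chosen for a target of 100 and kept. The script was tested on simulated data. P-values set the difference against the spread between mice of a genotype, which limma pools with that of probe sets of like signal. They cover no other source of spread, and with 2 mice per genotype no exact test of a single gene can reach the threshold.

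Probe sets were named from the platform annotation where it gives 1 symbol. All 35 genes were to be named, with *Ccnyl1* and, of the other lists, the 2 genes with the largest difference in each direction. Dynein-2 subunits, the *Ttc30* genes, *Bbip1* and the kinesin-2 genes were named from the wider list after their values were seen. The genes and lists were chosen with earlier results of these data known. Promoters are those of RefSeq (GRCm38.p6).

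The 11 alternatives changed the offset, the minimum signal, the normalization, the variance model, the replicate block, the test and the probe sets used, and 4 more left out 1 mouse each.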

Additional observations from a re-analysis of the deposited data

How the results depend on the processing

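No IFT or BBSome gene passed an adjusted p of 0.05 under any of the 15 alternatives, and the lowest adjusted p among them by limma was 0.182, without WT replicate 1. The median difference of the 34 genes, -0.0057, became -0.060 with arrays scaled to 1 median, -0.013 with the probe sets of each gene averaged and -0.048 over the 29 genes with a probe set without suffixes. It ranged from -0.017 to -0.0063 when 1 mouse was left out (-0.017 without *Ccnyl1*-/- replicate 1 and -0.012 without replicate 2). The number of genes at an unadjusted p under 0.05, 2 as reported, was 0 without the variance trend and 1 by the methods' t-test. It was 4 with probe sets averaged and 1 without suffixed probe sets. No share over all probe sets is given beside these counts, and the number also moved when 1 mouse was left out. The number of genes whose genotypes do not overlap, 13 as reported, was larger whenever 1 mouse was left out. It was 26 without WT replicate 1, 20 without WT replicate 2, 22 without *Ccnyl1*-/- replicate 1 and 26 without *Ccnyl1*-/- replicate 2. Such counts rise by themselves, because 3 values overlap less easily than 4. The share of all tested probe sets under the same omissions is not given, so these counts say nothing particular about the 34 genes. Over the whole array the 4 calls became 0 without the variance trend and 0 by the methods' t-test, and 6 to 55 when 1 mouse was left out (46 without WT replicate 1, 55 without WT replicate 2, 7 and 6 without *Ccnyl1*-/- replicates 1 and 2). *Ccnyl1* kept its difference of -1.29 in both of these but not its call, with adjusted p = 0.596 by limma without the trend and 0.723 by the methods' t-test. The cause of these shifts was not tested.

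The correlation between same-numbered mice of their deviations from the genotype means was 0.014. This value does not show whether some genes vary together in same-numbered mice, and a pairing limited to some genes was not tested. With the replicate number as a block, 14 probe sets passed over the whole array. Of the 34 genes, 3 reached an unadjusted p under 0.05, with no share over all probe sets given. The lowest adjusted p of the 34 was 0.435 by limma. With 2 mice per genotype, the 95% intervals of the 34 genes reached 0.11 to 0.46 to either side on the log2 scale, which limits what could be seen.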
